A study of Rattus norvegicus with 16 samples.

Results

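The 54 genes described here code for proteins that copy DNA or separate chromosomes, and they were followed in livers of wild-type and Tspo knockout rats on chow or on a diet without enough methionine and choline (MCD). They were chosen by symbol, 18 for DNA replication (replication members) and 36 for mitosis (mitosis members). The deposited tables hold 52 of them among 17168 genes, namely 18 replication and 34 mitosis members, while the expression of Bub1b and Anln was not analysed here. Each of the 52 passed the filter on low counts that kept 11162 genes for testing.

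All animals were Sprague Dawley rats, and each of the 4 groups has 4 liver libraries. WT-CHOW was wild type on chow, WT-MCD wild type on MCD, KO-CHOW Tspo knockout on chow and KO-MCD Tspo knockout on MCD. Feeding was normal up to 12 weeks of age, the diet lasted 8 weeks, and the rats were 20 weeks old at sampling. Tspo encodes a cholesterol-binding protein of the outer mitochondrial membrane, and an MCD diet is a model of steatohepatitis that removes precursors of phosphatidylcholine. The labels do not say how the Tspo allele was made, nor whether each library is a rat of its own, so the p-values speak only to library spread, which may be technical.

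Cells that divide use these genes in order. In G1 the origin licensing factors Cdc6 and Cdt1 load the MCM helicase onto DNA, and cyclin E with the E2F transcription factors then switches on the enzymes that supply nucleotides and carry the replication fork. In G2 and mitosis FoxM1, cyclin B and Cdk1, the mitotic kinases, the kinetochore and the spindle motors take over, and Cdc20 with Ube2c starts anaphase. S phase promoters are known for E2F sites. Mitotic promoters are known for the cell cycle homology region (CHR) and for the CCAAT box that NF-Y binds. Hepatocytes of an adult liver rarely divide, so most of these messages are scarce there until injury or loss of tissue.

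Promoter sequence was compared first, since it does not depend on the expression values. RefSeq promoters of the GRCr8 assembly, 250 bases before to 50 bases after a gene's start, were found for 43 of the 54 genes, 14 replication and 29 mitosis members including Bub1b and Anln. Mcm4, Cdc6, Rrm2, E2f1, Foxm1, Ccna2, Aurkb, Pbk, Ube2c, Tpx2 and Racgap1 had none in the table. The letters searched on both strands were TTCCCGC or TTGGCGC for E2F, TTTGAA or TTCGAA for the CHR, and CCAAT. Words can share letters, as where the reverse of TTGGCGC runs into CCAAT in Mcm7 and Ect2, or TTTGAA runs into ATTGG in Mki67 and Cdca8.

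The 120 bases before the start are shown for 3 replication promoters with an E2F word and 4 mitosis promoters with a CHR word and CCAAT boxes, chosen because the words can be read in them. Capitals mark a word on either strand, so ATTGG is CCAAT and TTCAAA is TTTGAA read from the other strand. The windows are Mcm5 (chr19:13488693-13488812, plus strand), Mcm6 (chr13:42404353-42404472, minus strand) and Tyms (chr9:120776084-120776203, minus strand) for replication. Those for mitosis are Ccnb2 (chr8:79981659-79981778, minus strand), Cdc20 (chr5:137255800-137255919, minus strand), Cdk1 (chr20:19265173-19265292, plus strand) and Cks2 (chr17:13727520-13727639, minus strand).
Mcm5: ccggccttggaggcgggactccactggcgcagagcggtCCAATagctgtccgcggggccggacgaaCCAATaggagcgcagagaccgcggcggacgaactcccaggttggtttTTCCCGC
Mcm6: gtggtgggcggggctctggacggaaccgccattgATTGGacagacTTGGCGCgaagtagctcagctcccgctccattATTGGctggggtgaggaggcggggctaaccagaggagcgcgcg
Tyms: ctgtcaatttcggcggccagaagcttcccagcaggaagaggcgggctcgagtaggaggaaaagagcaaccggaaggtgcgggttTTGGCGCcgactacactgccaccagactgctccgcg
Ccnb2: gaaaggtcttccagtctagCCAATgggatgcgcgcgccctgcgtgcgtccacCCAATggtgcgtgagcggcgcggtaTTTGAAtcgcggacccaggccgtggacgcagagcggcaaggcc
Cdc20: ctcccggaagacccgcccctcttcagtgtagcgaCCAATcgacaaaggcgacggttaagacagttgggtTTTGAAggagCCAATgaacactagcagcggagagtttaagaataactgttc
Cdk1: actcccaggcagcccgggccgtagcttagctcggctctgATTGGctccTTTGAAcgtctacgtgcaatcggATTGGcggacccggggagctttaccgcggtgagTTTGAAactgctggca
Cks2: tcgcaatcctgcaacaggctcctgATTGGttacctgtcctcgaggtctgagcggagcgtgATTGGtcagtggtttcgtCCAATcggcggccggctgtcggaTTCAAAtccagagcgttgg

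An E2F word was present in 8 of 14 replication promoters (57.1%) and in 5 of 29 mitosis promoters (17.2%), against 6.26% of all 33469 promoters of the same length. The CHR words showed the opposite order, with 3 of 14 replication promoters (21.4%), 21 of 29 mitosis promoters (72.4%) and 19.7% of all promoters. CCAAT occurred in 9 of 14 (64.3%) and 22 of 29 (75.9%), against 37.5% of all. A CHR word together with CCAAT was found in 58.6% of the mitosis promoters, 14.3% of the replication promoters and 7.95% of all. In the 150 bases before the start alone the CHR shares were 48.3%, 7.14% and 9.74%, in the same order of sets. The E2F shares there were 35.7% of replication promoters, 10.3% of mitosis promoters and 3.27% of all. Uhrf1 and Cdkn3 have several promoters in the table and the first was counted; that of Uhrf1 holds no E2F word, while both others do. These matches are descriptions of letters and not binding sites.

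**Figure D1:**
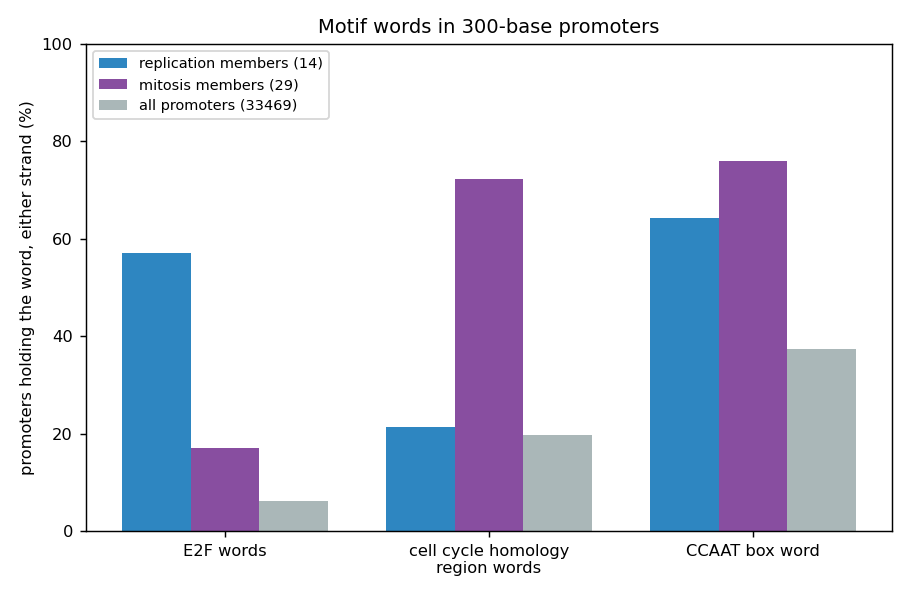
Bars give the percentage of 300-base promoters that hold each motif word on either strand, for 14 replication members, 29 mitosis members and all 33469 promoters. The E2F words are most frequent in replication promoters (57.1%) and the CHR words in mitosis promoters (72.4%).

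Tspo itself was at 3.61 to 5.23 CPM (the deposited TMM-scaled unit) in WT-CHOW, 7.63 to 9.34 in WT-MCD and 0.656 to 1.66 in 6 knockout libraries. The libraries labelled KO-CHOW 4 and KO-MCD 1 were at 4.42 and 4.17 CPM, near the wild type on chow. Log2 folds of the members were therefore also computed without them. Comparisons of library ranges, the further gene lists and the marker lists used all 16 libraries. WT-CHOW 4 and the same 2 libraries stood apart from the rest on the second principal component of all genes (-63.7 to -33.0, against -9.1 to 43.2). They also had the lowest index of long minus short messages of their groups, which is described with the replication and mitosis scores. Totals ran between 8745756 and 15762660 counts, so that 1 CPM stood for 6.92 to 21.2 counts, and many members rest on few reads.

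On the MCD diet most of the 52 members rose in both genotypes. Of 43 further replication genes, given below, 10 rose and 2 fell in the wild type, and 15 rose and 5 fell in the knockout. In the wild type 38 of 52 members rose and 0 fell at an adjusted p under 0.05 in edgeR's quasi-likelihood test, where 18.2% of all genes tested rose and 15.9% fell. In the knockout 42 rose and 1 fell, against 21.9% and 18.5% of all genes. The rise was called in both genotypes for 37 members, beside 14.9% of all genes. Replication members rose in 11 of 18 cases in the wild type and in 13 of 18 in the knockout, and mitosis members in 27 of 34 and 29 of 34. The median log2 fold of the replication members was 1.16 for wild type and 1.36 for knockout, that of the mitosis members 1.62 and 1.88, and that of all genes tested 0.00 and 0.04. Scaled to library totals alone, higher genes made up 90.4% and 94.1% of all genes called, against 53.3% and 54.2% here, and the members' medians were 1.98 and 2.44. These are bulk livers, in which more cells of a dividing type and more RNA per cell cannot be told apart.

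The libraries themselves separated in most cases. Every WT-MCD library exceeded every WT-CHOW library for 11 replication and 27 mitosis members, as for 20.1% of all genes. Every KO-MCD library exceeded every KO-CHOW library for 14 and 29, as for 17.6% of all genes, and Cks2 lay wholly lower, as 14.0% of all genes did. Without WT-CHOW 4 and the libraries labelled KO-CHOW 4 and KO-MCD 1, 12 replication and 27 mitosis members rose in the wild type (25.8% of all genes) and 13 and 29 in the knockout (27.9%). Without only those 2 libraries labelled knockout the counts were 11 and 28 (23.0%) and 12 and 29 (23.8%).

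**Figure D2:**
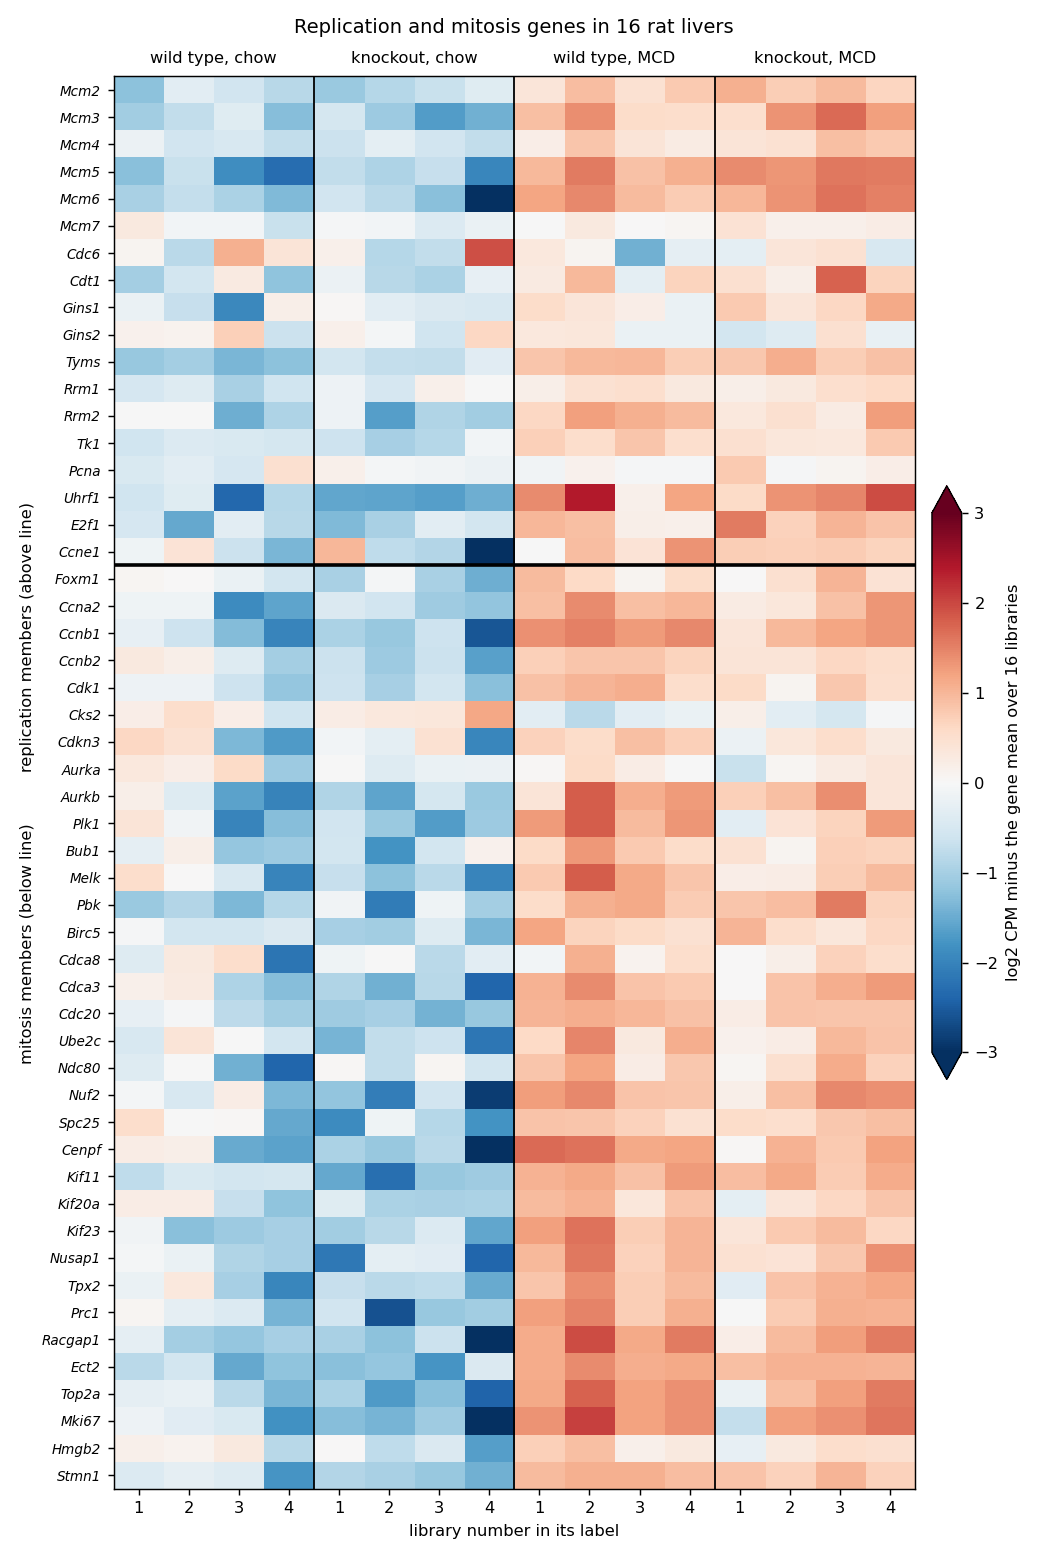
Each cell is the log2 CPM of a member in a library minus its mean over 16 libraries, with replication members above the thick line and mitosis members below; blue is lower and red higher. Both MCD blocks are mostly red and both chow blocks mostly blue, with Mcm7, Cdc6, Gins2, Pcna, Cks2 and Aurka as rows that do not follow, and among the MCD libraries the mitosis rows are palest in KO-MCD 1.

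**Figure D3:**
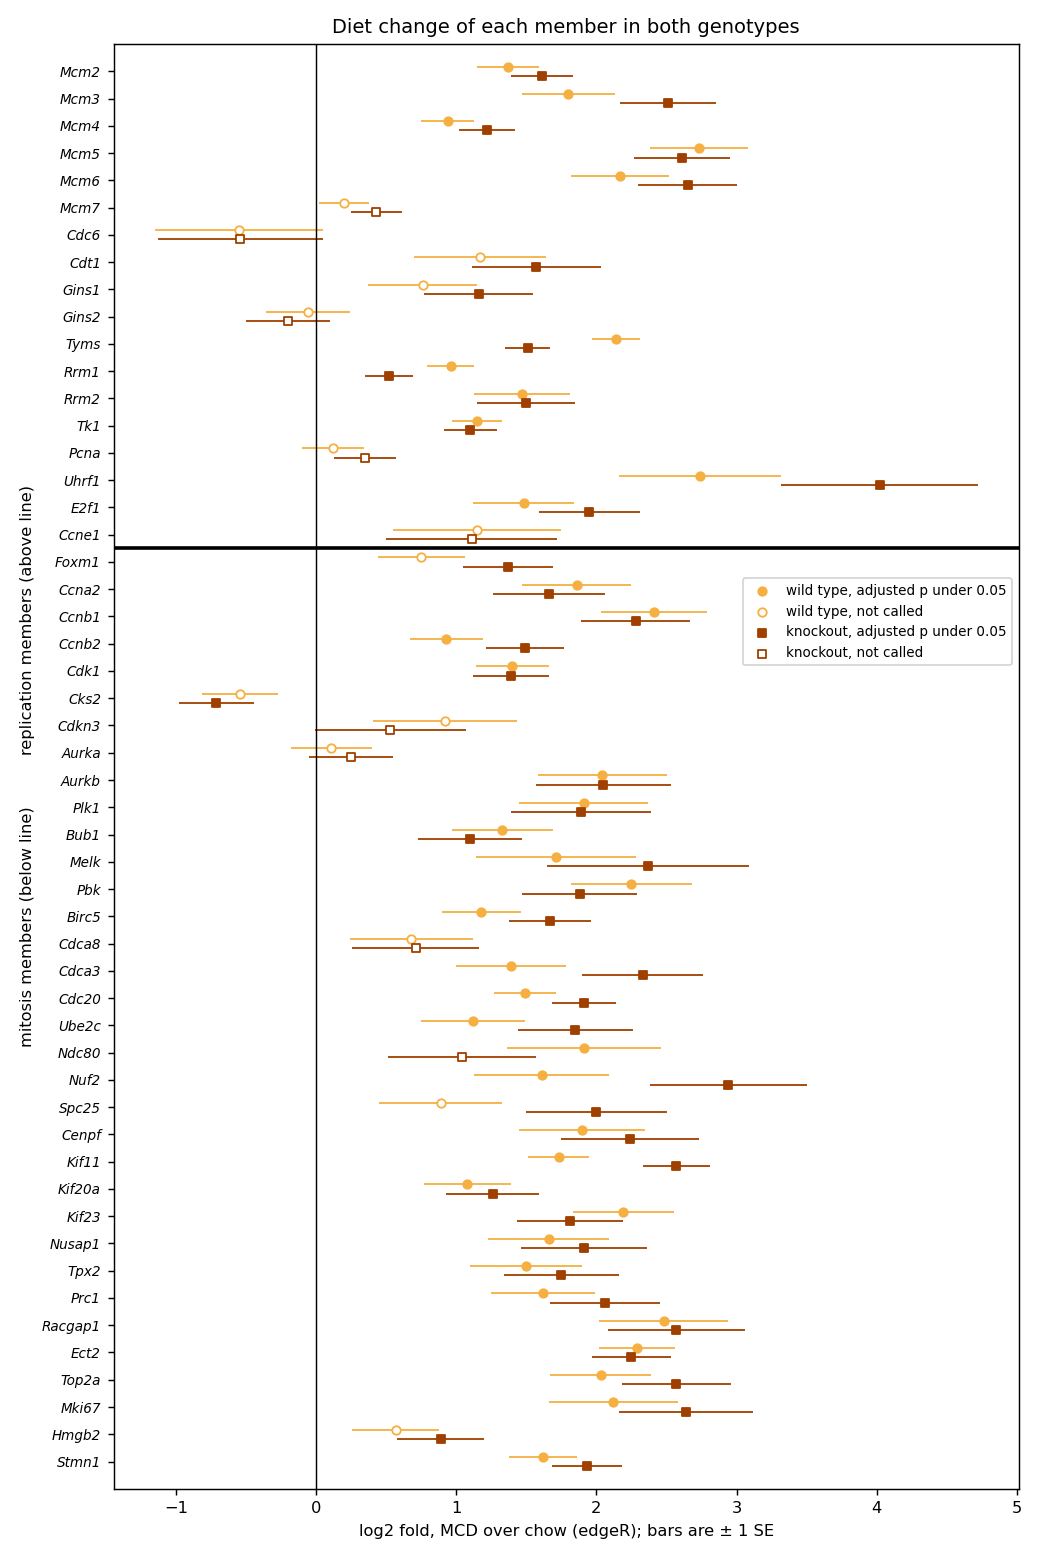
Points are log2 folds of MCD over chow for 52 members in the wild type (circles) and the knockout (squares), with bars of 1 SE; filled marks have an adjusted p under 0.05. All filled marks lie to the right of 0 apart from Cks2 in the knockout, and Cdc6, Ccne1 and Uhrf1 have the widest bars among replication members.

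Licensing and helicase genes split into a group that rose and a group that did not. Of these 10 genes 5 rose in wild-type and 7 in knockout livers, with median log2 folds of 1.05 and 1.40. The 5 called in both genotypes were Mcm2, Mcm3, Mcm4, Mcm5 and Mcm6, subunits of the helicase ring that opens DNA ahead of the fork. Mcm5 was at 0.742, 1.21, 0.433 and 0.285 CPM in WT-CHOW 1 to 4 and at 4.09, 6.14, 3.82 and 4.38 CPM in WT-MCD 1 to 4. Mcm5 in the knockout was at 1.14, 0.984, 1.19 and 0.402 CPM on chow and at 5.56, 5.21, 6.33 and 6.18 CPM on MCD. All MCD libraries were above all chow libraries in each genotype. The log2 folds of Mcm5 were 2.73 ± 0.35 (SE, adjusted p = 4.9e-05) for wild type and 2.61 ± 0.34 (SE, adjusted p = 4.34e-05) for knockout. Mcm2, which belongs to the same ring, was at 3.43, 6.6, 5.49 and 4.57 CPM in WT-CHOW 1 to 4 and at 10.6, 15.7, 11.3 and 14.2 CPM in WT-MCD 1 to 4. Mcm2 in the knockout was at 3.75, 4.48, 5.15 and 6.43 CPM on chow and at 17.5, 13.9, 16.1 and 13 CPM on MCD. The diets did not overlap here either. Mcm2 changed by 1.37 ± 0.22 (SE, adjusted p = 0.000256) and 1.61 ± 0.22 (SE, adjusted p = 6.2e-05) on the log2 scale. The log2 folds of Mcm3, Mcm4 and Mcm6 were 1.80, 0.94 and 2.17 in the wild type and 2.51, 1.22 and 2.65 in the knockout.

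The last subunit of the ring, Mcm7, was not called in either genotype. Mcm7 was at 15.8, 12.2, 12.1 and 7.99 CPM in WT-CHOW 1 to 4 and at 12.8, 15.9, 12.9 and 13.5 CPM in WT-MCD 1 to 4. Mcm7 in the knockout was at 12.5, 12.1, 9.61 and 11.2 CPM on chow and at 17.5, 14.3, 14.3 and 15 CPM on MCD. Its wild-type groups overlapped, while each KO-MCD library was above each KO-CHOW library. The log2 folds were 0.20 ± 0.18 (SE, adjusted p = 0.412) and 0.43 ± 0.18 (SE, adjusted p = 0.0673). Cdc6, which loads the helicase at origins, was at 2.04, 1.02, 4.19 and 2.57 CPM in WT-CHOW 1 to 4 and at 2.42, 2.02, 0.607 and 1.55 CPM in WT-MCD 1 to 4. Cdc6 in the knockout was at 2.16, 0.984, 1.09 and 7.76 CPM on chow and at 1.53, 2.52, 2.69 and 1.33 CPM on MCD. The highest value stood in the library labelled KO-CHOW 4 and all groups overlapped. Cdc6 had log2 folds of -0.55 ± 0.60 (SE, adjusted p = 0.499) and -0.54 ± 0.59 (SE, adjusted p = 0.483). Without the 2 libraries labelled knockout with high Tspo the knockout value turned to 0.62 ± 0.54 (SE, adjusted p = 0.366). Gins2, a subunit of the GINS complex that activates the helicase, was at 16.4, 16, 24.6 and 9.51 CPM in WT-CHOW 1 to 4 and at 18.6, 19.1, 12.9 and 12.9 CPM in WT-MCD 1 to 4. Gins2 in the knockout was at 16.5, 14.4, 9.8 and 22.9 CPM on chow and at 10.2, 11.4, 20.8 and 12.8 CPM on MCD. Again the groups overlapped. For Gins2 the log2 folds were -0.06 ± 0.30 (SE, adjusted p = 0.891) and -0.20 ± 0.30 (SE, adjusted p = 0.61), and the second turned to 0.14 without those 2 libraries. Its partner Gins1 and the loader Cdt1 rose in the knockout, by 1.16 ± 0.39 (SE, adjusted p = 0.0248) and 1.57 ± 0.46 (SE, adjusted p = 0.0136). In the wild type Gins1 stood at 0.76 ± 0.39 (SE, adjusted p = 0.141) and Cdt1 at 1.17 ± 0.47 (SE, adjusted p = 0.0621), and the difference between genotypes was not called for either gene. Gins1 lost its call without KO-CHOW 2, 3 or 4 or KO-MCD 4 (adjusted p of 0.0516 to 0.0818) and without both high-Tspo libraries (0.0634), and Cdt1 without KO-MCD 3 (0.0608).

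Genes that supply nucleotides rose on MCD. Of 6 nucleotide and fork genes 5 rose in each genotype, with medians of 1.31 and 1.30. Tyms, the thymidylate synthase that makes dTMP, was at 2.23, 2.42, 1.88 and 2.09 CPM in WT-CHOW 1 to 4 and at 9.24, 10.2, 10.4 and 8.57 CPM in WT-MCD 1 to 4. Tyms in the knockout was at 3.41, 3.06, 2.97 and 4.02 CPM on chow and at 9.04, 11, 8.58 and 9.5 CPM on MCD. The diets were far apart in both genotypes, and on chow the knockout libraries were all above the wild type. Tyms rose by 2.14 ± 0.17 (SE, adjusted p = 8.52e-07) in the wild type, the smallest adjusted p of any member there, and by 1.51 ± 0.16 (SE, adjusted p = 9.78e-06) in the knockout. Tk1, the thymidine kinase of the salvage pathway, was at 10.1, 11.5, 11.1 and 10.6 CPM in WT-CHOW 1 to 4 and at 25.3, 22.1, 27.1 and 21.8 CPM in WT-MCD 1 to 4. Tk1 in the knockout was at 9.88, 7.55, 8.42 and 14.5 CPM on chow and at 21.3, 19.4, 19 and 26.3 CPM on MCD. No diet groups of Tk1 overlapped. Its log2 folds were 1.15 ± 0.18 (SE, adjusted p = 0.000279) and 1.10 ± 0.19 (SE, adjusted p = 0.000356). The ribonucleotide reductase subunits Rrm1 and Rrm2, which make deoxynucleotides, rose by 0.96 and 1.47 in the wild type and by 0.52 and 1.50 in the knockout. The knockout call of Rrm1 was lost without KO-CHOW 1 or 2 or KO-MCD 3 or 4 (adjusted p of 0.0525 to 0.0772).

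Pcna, the sliding clamp of the fork and a common proliferation marker, was not called. Pcna was at 12.6, 13.9, 12.1 and 24.2 CPM in WT-CHOW 1 to 4 and at 16, 18.9, 16.7 and 16.9 CPM in WT-MCD 1 to 4. Pcna in the knockout was at 19.2, 16.4, 15.9 and 15.1 CPM on chow and at 30.0, 16.9, 18.3 and 19.7 CPM on MCD. The groups overlapped, and WT-CHOW 4 and the library labelled KO-MCD 1 were the highest of their groups. The log2 folds of Pcna were 0.12 ± 0.22 (SE, adjusted p = 0.694) and 0.35 ± 0.22 (SE, adjusted p = 0.217). Without the 3 libraries that stood apart Pcna rose in the wild type, by 0.41 ± 0.12 (SE, adjusted p = 0.0104). Uhrf1, which brings the maintenance methyltransferase to newly copied DNA, was at 0.371, 0.465, 0 and 0.285 CPM in WT-CHOW 1 to 4 and at 1.97, 3.98, 0.728 and 1.65 CPM in WT-MCD 1 to 4. Uhrf1 in the knockout was at 0.114, 0.109, 0.099 and 0.134 CPM on chow and at 1.04, 1.89, 2.04 and 2.93 CPM on MCD. Each KO-CHOW value was a single read, and each MCD library was above each chow library. Uhrf1 had log2 folds of 2.74 ± 0.58 (SE, adjusted p = 0.00213) and 4.02 ± 0.70 (SE, adjusted p = 0.000436), the second against 1 count per library.

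The S phase entry genes were E2f1 and Ccne1. E2f1, a transcription factor of S phase genes, was at 1.11, 0.465, 1.3 and 0.856 CPM in WT-CHOW 1 to 4 and at 3.41, 3.2, 1.88 and 1.84 CPM in WT-MCD 1 to 4. E2f1 in the knockout was at 0.568, 0.765, 1.29 and 1.07 CPM on chow and at 5.15, 2.75, 3.49 and 3.09 CPM on MCD. MCD and chow did not overlap. E2f1 rose by 1.48 ± 0.36 (SE, adjusted p = 0.00559) and 1.95 ± 0.36 (SE, adjusted p = 0.000693). Ccne1, the cyclin E that partners Cdk2 at S phase entry, was at 1.11, 1.67, 0.722 and 0.381 CPM in WT-CHOW 1 to 4 and at 1.21, 2.48, 1.7 and 3.34 CPM in WT-MCD 1 to 4. Ccne1 in the knockout was at 2.61, 0.656, 0.594 and 0 CPM on chow and at 2.16, 2.12, 2.18 and 2.04 CPM on MCD. The spread within the chow groups was wide and the diets overlapped. Ccne1 had log2 folds of 1.15 ± 0.60 (SE, adjusted p = 0.142) and 1.11 ± 0.61 (SE, adjusted p = 0.151), neither of which passed the test.

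Among the mitotic regulators, cyclins rose and 1 Cdk1 partner went the other way. Of 7 genes 4 rose in wild-type livers, while 5 rose and 1 fell in the knockout. Ccnb1, the B-type cyclin that activates Cdk1, was at 1.95, 1.49, 0.867 and 0.476 CPM in WT-CHOW 1 to 4 and at 6.36, 6.99, 5.94 and 6.64 CPM in WT-MCD 1 to 4. Ccnb1 in the knockout was at 1.14, 0.984, 1.49 and 0.268 CPM on chow and at 3.06, 4.75, 5.53 and 6.13 CPM on MCD. All MCD libraries were higher, and the library labelled KO-CHOW 4 was the lowest of all. Ccnb1 rose by 2.41 ± 0.38 (SE, adjusted p = 0.000247) and 2.28 ± 0.39 (SE, adjusted p = 0.000414). Cdk1, the kinase that drives entry into mitosis, was at 3.06, 3.07, 2.17 and 1.43 CPM in WT-CHOW 1 to 4 and at 6.36, 7.05, 7.46 and 4.99 CPM in WT-MCD 1 to 4. Cdk1 in the knockout was at 2.16, 1.64, 2.28 and 1.34 CPM on chow and at 5.15, 3.61, 6.04 and 4.91 CPM on MCD. The diets were separate in both genotypes. Cdk1 rose by 1.40 ± 0.26 (SE, adjusted p = 9e-04) and 1.39 ± 0.27 (SE, adjusted p = 0.00101). Ccna2 and Ccnb2, 2 further cyclins of S phase and mitosis, rose by 1.86 and 0.93 in the wild type and by 1.66 and 1.49 in the knockout. The transcription factor Foxm1 rose by 1.37 ± 0.32 (SE, adjusted p = 0.00361) in the knockout and stood at 0.75 ± 0.31 (SE, adjusted p = 0.0685) in the wild type, where its diet groups did not overlap. Without the 2 high-Tspo libraries the same wild-type fold was called (adjusted p = 0.0345).

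Cks2, a small Cdk1-binding subunit, fell on MCD in the knockout, a call that rested on single libraries and on the scaling. Cks2 was at 7.51, 9.58, 7.51 and 4.28 CPM in WT-CHOW 1 to 4 and at 5.22, 3.66, 5.22 and 5.7 CPM in WT-MCD 1 to 4. Cks2 in the knockout was at 7.61, 8.2, 8.32 and 14.7 CPM on chow and at 7.44, 5.21, 4.51 and 6.4 CPM on MCD. The highest value stood in the library labelled KO-CHOW 4, and each KO-MCD library was below each KO-CHOW library. The log2 folds were -0.54 ± 0.27 (SE, adjusted p = 0.126) for wild type and -0.71 ± 0.27 (SE, adjusted p = 0.041) for knockout. Without KO-CHOW 4 the knockout call was lost (-0.45, adjusted p = 0.173), as it was without KO-MCD 2, 3 or 4 (0.0657 to 0.111), and without the 3 libraries that stood apart Cks2 fell in both genotypes (-0.73 ± 0.18, adjusted p = 0.00433, and -0.58 ± 0.20, adjusted p = 0.0231). Without only the 2 high-Tspo libraries neither genotype was called, with -0.58 ± 0.25 (SE, adjusted p = 0.0781) in the knockout. Scaled to library totals alone its log2 fold in the knockout was 0.03 (adjusted p = 0.932). The promoter of Cks2 printed above carries a CHR word and CCAAT boxes as that of the cyclin Ccnb2 does. Cdkn3, a phosphatase that acts on Cdk1 and Cdk2, was at 1.58, 1.39, 0.289 and 0.19 CPM in WT-CHOW 1 to 4 and at 1.67, 1.5, 1.94 and 1.7 CPM in WT-MCD 1 to 4. Cdkn3 in the knockout was at 0.909, 0.765, 1.39 and 0.134 CPM on chow and at 0.834, 1.26, 1.46 and 1.21 CPM on MCD. The groups overlapped. Cdkn3 had log2 folds of 0.92 ± 0.51 (SE, adjusted p = 0.173) and 0.53 ± 0.54 (SE, adjusted p = 0.445).

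Of 6 mitotic kinases 5 rose in both genotypes, with medians of 1.81 and 1.88. Pbk, a kinase of mitotic cells, was at 0.371, 0.465, 0.289 and 0.476 CPM in WT-CHOW 1 to 4 and at 1.51, 2.22, 2.37 and 1.79 CPM in WT-MCD 1 to 4. Pbk in the knockout was at 0.909, 0.109, 0.891 and 0.402 CPM on chow and at 1.88, 2, 3.2 and 1.66 CPM on MCD. Each MCD library exceeded each chow library. Pbk rose by 2.25 ± 0.43 (SE, adjusted p = 0.00111) and 1.88 ± 0.41 (SE, adjusted p = 0.00235). Aurkb, the kinase of the chromosomal passenger complex that corrects kinetochore attachment, was at 1.85, 1.21, 0.433 and 0.285 CPM in WT-CHOW 1 to 4 and at 2.2, 6.14, 3.64 and 4.14 CPM in WT-MCD 1 to 4. Aurkb in the knockout was at 0.795, 0.437, 1.09 and 0.669 CPM on chow and at 2.78, 3.21, 4.51 and 2.15 CPM on MCD. The chow values of the wild type fell into a higher and a lower pair, both below MCD. Aurkb rose by 2.04 ± 0.46 (SE, adjusted p = 0.00322) and 2.05 ± 0.48 (SE, adjusted p = 0.00368). Plk1, a regulator of spindle formation, rose by 1.91 and 1.89, and Bub1, a checkpoint kinase, by 1.33 and 1.10. Melk was at 0 in WT-CHOW 4 and KO-CHOW 4 and at 0.908 to 2.02 CPM in WT-MCD, with log2 folds of 1.71 and 2.37. Bub1 in the knockout lost its call without KO-CHOW 1, 2 or 3 or KO-MCD 3 or 4 (adjusted p of 0.0508 to 0.0714), and Melk in the wild type without WT-CHOW 2, 3 or 4 or WT-MCD 2 (0.052 to 0.0964).

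Aurka, the centrosomal relative of Aurkb, was the kinase that was not called. Aurka was at 7.6, 6.97, 9.1 and 2.76 CPM in WT-CHOW 1 to 4 and at 6.21, 9.07, 7.16 and 5.98 CPM in WT-MCD 1 to 4. Aurka in the knockout was at 6.02, 4.59, 5.25 and 5.35 CPM on chow and at 3.75, 6.35, 7.2 and 7.84 CPM on MCD. The diets overlapped in both genotypes, with the lowest values in WT-CHOW 4 and KO-MCD 1. Its log2 folds were 0.11 ± 0.29 (SE, adjusted p = 0.789) and 0.25 ± 0.30 (SE, adjusted p = 0.525), and the first turned to -0.14 ± 0.18 (SE, adjusted p = 0.522) without the 3 libraries that stood apart.

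Of 5 genes of the passenger complex and of anaphase 4 rose in both genotypes. Cdc20, which activates the anaphase-promoting complex, was at 5.1, 5.95, 3.47 and 2.85 CPM in WT-CHOW 1 to 4 and at 12.4, 13.1, 12.3 and 11.3 CPM in WT-MCD 1 to 4. Cdc20 in the knockout was at 2.84, 2.95, 2.18 and 2.68 CPM on chow and at 7.09, 11, 10.9 and 11 CPM on MCD. The diets were separate, and on MCD all knockout libraries were below the wild type, KO-MCD 1 the most. Cdc20 rose by 1.49 ± 0.22 (SE, adjusted p = 0.000137) and 1.91 ± 0.23 (SE, adjusted p = 2.33e-05). Birc5, the survivin subunit of the passenger complex, was at 1.95, 1.3, 1.3 and 1.43 CPM in WT-CHOW 1 to 4 and at 4.69, 3.26, 3.03 and 2.78 CPM in WT-MCD 1 to 4. Birc5 in the knockout was at 0.909, 0.875, 1.49 and 0.669 CPM on chow and at 4.17, 2.92, 2.55 and 3.15 CPM on MCD. There was no overlap between diets. Birc5 rose by 1.18 ± 0.28 (SE, adjusted p = 0.00415) and 1.67 ± 0.29 (SE, adjusted p = 0.000467). Ube2c, the ubiquitin-conjugating enzyme of the same anaphase complex, rose by 1.12 and 1.85, and Cdca3 by 1.39 and 2.33. The wild-type call of Ube2c was lost without WT-CHOW 1 or 4 or WT-MCD 2 or 4 (adjusted p of 0.0665 to 0.0997). Cdca8, the borealin subunit of the passenger complex, was at 1.39, 2.32, 2.75 and 0.285 CPM in WT-CHOW 1 to 4 and at 1.74, 4.05, 2 and 2.78 CPM in WT-MCD 1 to 4. Cdca8 in the knockout was at 1.7, 1.86, 0.99 and 1.47 CPM on chow and at 1.88, 2.12, 3.13 and 2.76 CPM on MCD. WT-CHOW 4 was the lowest library, and only the knockout groups did not overlap. Cdca8 had log2 folds of 0.68 ± 0.44 (SE, adjusted p = 0.241) and 0.71 ± 0.45 (SE, adjusted p = 0.215).

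Of 4 kinetochore genes 3 rose in each genotype, with Ndc80 called in the wild type alone and Spc25 in the knockout alone. Cenpf, a large protein of the outer kinetochore, was at 2.78, 2.7, 0.722 and 0.666 CPM in WT-CHOW 1 to 4 and at 8.02, 7.57, 5.34 and 5.51 CPM in WT-MCD 1 to 4. Cenpf in the knockout was at 1.14, 0.984, 1.29 and 0.134 CPM on chow and at 2.43, 5.04, 4.15 and 5.63 CPM on MCD. The library labelled KO-CHOW 4 was the lowest and KO-MCD 1 the lowest on MCD. Cenpf rose by 1.90 ± 0.45 (SE, adjusted p = 0.00457) and 2.24 ± 0.49 (SE, adjusted p = 0.00237). Ndc80, which binds microtubules, was at 0.464, 0.651, 0.144 and 0 CPM in WT-CHOW 1 to 4 and at 1.29, 1.7, 0.789 and 1.27 CPM in WT-MCD 1 to 4. Ndc80 in the knockout was at 0.681, 0.328, 0.693 and 0.402 CPM on chow and at 0.695, 0.973, 1.6 and 1.16 CPM on MCD. Although the diets did not overlap, the margin in the knockout was small. Ndc80 rose by 1.91 ± 0.55 (SE, adjusted p = 0.0145) in the wild type and stood at 1.04 ± 0.53 (SE, adjusted p = 0.123) in the knockout. Nuf2, a partner in its complex, rose by 1.61 ± 0.48 (SE, adjusted p = 0.0168) and 2.94 ± 0.56 (SE, adjusted p = 0.000889). Spc25, another partner, stood at 0.89 ± 0.44 (SE, adjusted p = 0.127) in the wild type and rose by 2.00 ± 0.50 (SE, adjusted p = 0.00565) in the knockout. Both rested on few reads in KO-CHOW, with 0 to 6 counts for Nuf2 and 1 to 7 for Spc25. The difference between genotypes was not called for any of the 4 kinetochore genes.

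All 8 spindle and cytokinesis genes measured rose in both genotypes, with medians of 1.69 and 1.98. Ect2, the exchange factor that positions the cleavage furrow, was at 1.3, 1.58, 0.722 and 0.951 CPM in WT-CHOW 1 to 4 and at 5.38, 6.72, 5.28 and 5.51 CPM in WT-MCD 1 to 4. Ect2 in the knockout was at 0.909, 0.984, 0.594 and 1.74 CPM on chow and at 4.59, 5.09, 5.09 and 5.02 CPM on MCD. MCD was above chow throughout, and the KO-MCD libraries were all below the WT-MCD libraries. Ect2 rose by 2.29 ± 0.27 (SE, adjusted p = 2.53e-05) and 2.25 ± 0.28 (SE, adjusted p = 3.05e-05). Kif11, the motor that pushes spindle poles apart, was at 1.85, 2.32, 2.17 and 2.19 CPM in WT-CHOW 1 to 4 and at 6.89, 7.25, 6.13 and 8.01 CPM in WT-MCD 1 to 4. Kif11 in the knockout was at 1.02, 0.547, 1.39 and 1.47 CPM on chow and at 6.33, 7.27, 5.6 and 7.18 CPM on MCD. On chow the knockout lay wholly below the wild type, and on MCD they overlapped. Kif11 rose by 1.73 ± 0.22 (SE, adjusted p = 5.14e-05) and 2.57 ± 0.24 (SE, adjusted p = 3.63e-06), the smallest adjusted p of any member in the knockout. The other 6 were Kif20a, Kif23, Prc1 and Racgap1 of the central spindle and Nusap1 and Tpx2 of spindle assembly. Their log2 folds ran from 1.08 (Kif20a) to 2.48 (Racgap1) in the wild type and from 1.26 to 2.57, for the same 2 genes, in the knockout.

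The last group held chromosome proteins and proliferation markers, of which 3 of 4 rose in the wild type and 4 of 4 in the knockout. Stmn1, a microtubule-destabilising protein, was at 10.8, 12, 11 and 4.09 CPM in WT-CHOW 1 to 4 and at 27.9, 30.2, 30.6 and 27.7 CPM in WT-MCD 1 to 4. Stmn1 in the knockout was at 7.84, 7.33, 6.44 and 5.22 CPM on chow and at 26.1, 23.5, 29.3 and 23.4 CPM on MCD. The diets were far apart. Stmn1 rose by 1.62 ± 0.24 (SE, adjusted p = 0.000154) and 1.93 ± 0.25 (SE, adjusted p = 3.78e-05). Top2a, the topoisomerase that untangles sister chromatids, was at 4.08, 4.18, 2.75 and 1.81 CPM in WT-CHOW 1 to 4 and at 11, 17.2, 11.6 and 13 CPM in WT-MCD 1 to 4. Top2a in the knockout was at 2.5, 1.42, 1.98 and 0.803 CPM on chow and at 4.31, 9.45, 11.9 and 14.7 CPM on MCD. Although the diets did not overlap, KO-MCD 1 was well below the other 3 libraries of its group. Top2a rose by 2.03 ± 0.36 (SE, adjusted p = 0.000642) and 2.57 ± 0.39 (SE, adjusted p = 0.000151). Mki67, the Ki-67 antigen that coats mitotic chromosomes, was at 10.5, 9.2, 8.52 and 3.23 CPM in WT-CHOW 1 to 4 and at 30.1, 48.8, 27.2 and 30.6 CPM in WT-MCD 1 to 4. Mki67 in the knockout was at 4.77, 4.37, 5.55 and 1.34 CPM on chow and at 7.02, 27.7, 30.7 and 35.8 CPM on MCD. WT-MCD 2 was the highest library, and KO-MCD 1 was below the 3 highest of WT-CHOW. Mki67 rose by 2.12 ± 0.46 (SE, adjusted p = 0.00241) and 2.64 ± 0.48 (SE, adjusted p = 0.000613). Hmgb2, a chromatin protein, rose by 0.89 ± 0.31 (SE, adjusted p = 0.0324) in the knockout and stood at 0.57 ± 0.31 (SE, adjusted p = 0.16) in the wild type. Its knockout call was lost without KO-CHOW 2 or 4 or KO-MCD 2, 3 or 4 (adjusted p of 0.0609 to 0.0837).

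**Figure D4:**
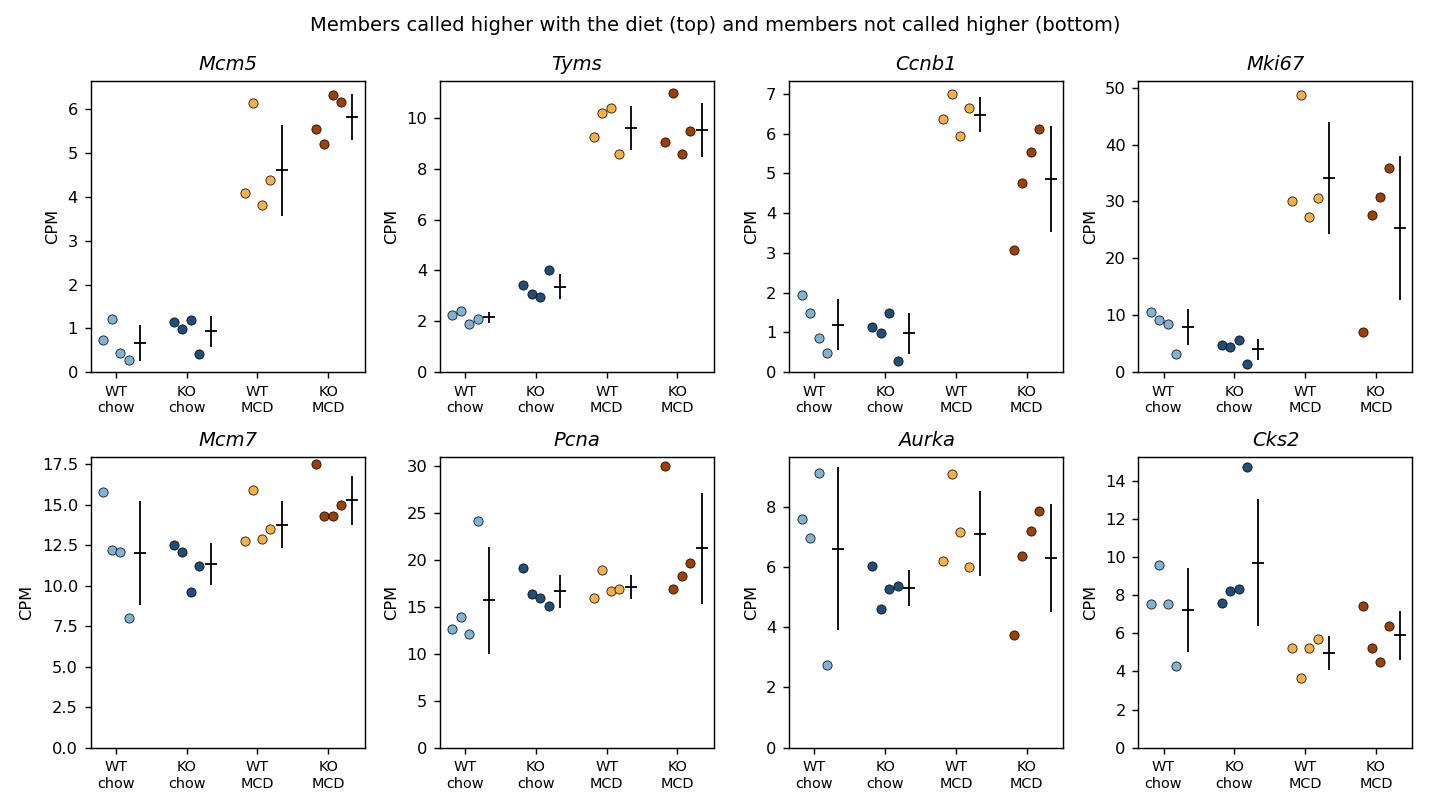
Dots are CPM in single libraries for 8 members by group, with the mean and SD (n = 4) beside each group. Mcm5, Tyms, Ccnb1 and Mki67 (top) show MCD libraries above chow libraries in each genotype, while Mcm7, Pcna, Aurka and Cks2 (bottom) were not called higher.

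The knockout was then set against the wild type on the same diet. No member was called on chow, where 0% of all genes were called higher and 0.00896% lower, none on MCD (0% of all genes in either direction) and none for the difference of the diet effects (0%). At an unadjusted p under 0.05 there were 9 members on chow, 0 on MCD and 2 for the difference, against 10.3%, 0.726% and 2.96% of all genes, and DESeq2 and limma called 0 in each. The 9 were Tyms and Rrm1, higher in the knockout, and Ccnb2, Cdca3, Cdc20, Ube2c, Nuf2, Kif11 and Top2a, lower. On chow 31 of 34 mitosis members had a log2 fold below 0, with a median of -0.56, and on MCD 32 of 34, with a median of -0.29. Without the 2 high-Tspo libraries 29 and 25 of 34 were below 0, with medians of -0.45 and -0.18, and without the 3 libraries that stood apart 32 and 25, with medians of -0.62 and -0.17. For replication members the medians were -0.02 and 0.21 with all libraries. They were -0.05 and 0.15 without the 2 high-Tspo libraries and -0.15 and 0.15 without the 3 that stood apart. Of all genes 48.1% and 50.5% were above 0.

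On chow the groups did not overlap for 3 members. Tyms was at 2.97 to 4.02 CPM in the knockout and 1.88 to 2.42 in the wild type, a log2 fold of 0.63 ± 0.18 (SE, adjusted p = 0.395). Higher values throughout, as for Tyms, occurred for 1.75% of all genes, and lower values for 2.59%. Kif11 was at 0.547 to 1.47 against 1.85 to 2.32 CPM, a log2 fold of -0.95 ± 0.26 (SE, adjusted p = 0.395), and Ube2c at 0.268 to 1.09 against 1.14 to 2.32 CPM, -1.09 ± 0.44 (SE, adjusted p = 0.46). On MCD 4 members lay wholly lower in the knockout and 0 wholly higher, beside 0.376% and 0.421% of all genes. These 4 were Ccnb2, Cdkn3, Cdc20 and Ect2, with log2 folds of -0.29 ± 0.25, -0.51 ± 0.48, -0.29 ± 0.21 and -0.21 ± 0.24 (SE), each with an adjusted p of 1.

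The chow comparison changed when WT-CHOW 4 and the libraries labelled KO-CHOW 4 and KO-MCD 1 were left out. Then 4 mitosis members were lower in the knockout on chow, where 2.79% of all genes were called lower and 1.81% higher. Ccnb2 was at a log2 fold of -0.91 ± 0.23 (SE, adjusted p = 0.0405) and Cdc20 at -0.89 ± 0.21 (0.0304). Mki67 was at -0.94 ± 0.23 (0.0358) and Stmn1 at -0.65 ± 0.14 (0.025), and 0 replication members were called. Without only the 2 libraries labelled knockout with high Tspo, 0 members were called on chow, beside 0.0178% of all genes in each direction. WT-CHOW 4 was set apart by the expression values and was the lowest WT-CHOW library for each of these 4 genes. Leaving it out therefore raised their wild-type means, and the 4 calls are no independent result. The library labelled KO-CHOW 4 was the lowest of its own group for Ccnb2, Mki67 and Stmn1. Which libraries are used thus decided whether any member was called.

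Replication and mitosis members were also averaged in each library as mean log2 CPM, set relative to the mean of WT-CHOW. The replication score was 0.00 ± 0.14 in WT-CHOW, -0.02 ± 0.18 in KO-CHOW, 1.17 ± 0.24 in WT-MCD and 1.33 ± 0.13 in KO-MCD (SD, n = 4). The mitosis score was 0.00 ± 0.58, -0.44 ± 0.35, 1.49 ± 0.20 and 1.2 ± 0.32 in the same order. On chow the mitosis score thus varied more between libraries than the replication score did. By library it was 0.48, 0.43, -0.17 and -0.74 in WT-CHOW 1 to 4, and -0.22, -0.48, -0.15 and -0.93 in KO-CHOW. On MCD it was 1.44, 1.79, 1.32 and 1.42 in the wild type and 0.76, 1.14, 1.43 and 1.44 in the knockout. The lowest libraries of their groups were WT-CHOW 4, KO-CHOW 4 and KO-MCD 1, the 3 that stood apart. Their replication scores were -0.17, -0.10 and 1.21, beside -0.06, -0.12 and 1.22 in the nearest library of each group. WT-CHOW 4 and KO-MCD 1 were thus also the lowest of their groups for replication, by smaller margins.

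The replication score minus the mitosis score was 0.27, 0.37, 0.76 and 1.23 in WT-CHOW 1 to 4 and 1.12, 1.01, 0.69 and 1.49 in KO-CHOW, taken on unshifted log2 CPM. On MCD it was 0.38, 0.36, 0.27 and 0.33 in the wild type and 1.11, 0.73, 0.70 and 0.62 in the knockout, so the knockout libraries were above all wild-type libraries on MCD and overlapped with them on chow. Over the fitted log2 folds the replication mean minus the mitosis mean was -0.27 between diets for wild type and -0.33 for knockout, about the pooled library SD of 0.29. For knockout against wild type it was 0.50 on chow and 0.45 on MCD, and 0.50 and 0.36 without the 3 libraries that stood apart. The difference of the diet effects was -0.06. Both genotype comparisons on a diet share libraries with the diet comparisons, and the scores were not tested.

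**Figure D5:**
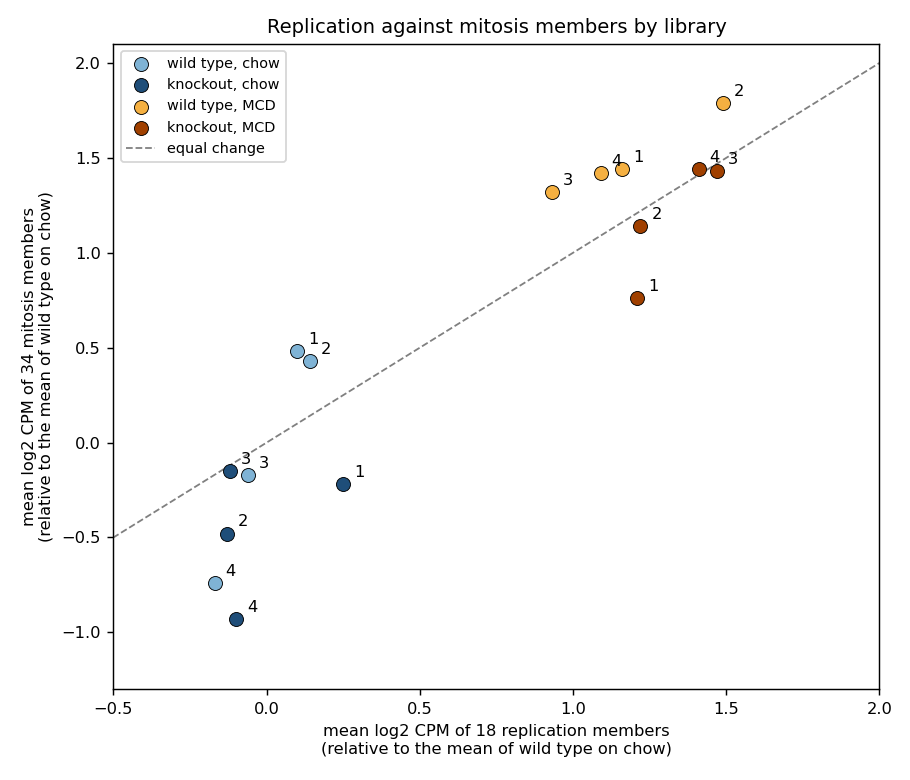
Each dot is a library, numbered as in its label, with the mean log2 CPM of 18 replication members on the x axis and of 34 mitosis members on the y axis, both relative to WT-CHOW. MCD libraries lie at 0.93 or more on the x axis and chow libraries at 0.25 or less; the wild-type MCD libraries lie above the dashed line of equal change, and KO-MCD 1 lies farthest below it among the MCD libraries.

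In each group a measure of message length was lowest in the library with the lowest mitosis score. This index subtracts the average log2 CPM of 24 short-message genes from that of 15 long-message genes and is set relative to WT-CHOW. The index was 0.30, 0.25, 0.07 and -0.62 in WT-CHOW 1 to 4 and -0.23, 0.05, -0.12 and -1.59 in KO-CHOW. On MCD it was 1.61, 1.87, 1.22 and 1.61 in the wild type and -0.63, 1.75, 1.31 and 1.84 in the knockout. It was lowest in the 3 libraries named above and higher on MCD in the other libraries. The other libraries did not always keep the order of the mitosis score. KO-MCD 2 was above KO-MCD 3 in the index and below it in that score. The replication score was also higher on MCD, and no correlation of the index with either score was computed. With the index as a covariate 9 replication and 13 mitosis members rose in the wild type (13.3% of all genes) and 10 and 17 in the knockout (12.3%). The replication mean minus the mitosis mean then turned to 0.18 and 0.14. What part the index has in the diet differences was not tested, since it moves with the diet.

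Other genes of the same pathways were counted from lists. Of 43 further replication genes tested 10 rose and 2 fell in the wild type on MCD (median log2 fold 0.10), and 15 rose and 5 fell in the knockout (0.34). Of all genes 18.2% rose and 15.9% fell in the wild type and 21.9% and 18.5% in the knockout, which holds for the next lists too. Pold3, a subunit of the lagging-strand polymerase, rose by 1.00 ± 0.21 (SE, adjusted p = 0.0021) and, in knockout livers, by 0.98 ± 0.21 (SE, adjusted p = 0.00214). Timeless, which steadies the fork, rose by 0.91 and 0.95, and Fen1, which trims Okazaki fragments, by 1.13 and 1.36. Ccne2, a second cyclin E, fell in both genotypes, with log2 folds of -1.03 and -1.02.

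Of 44 further mitosis genes 19 rose and 0 fell in the wild type (median 0.89), and 27 rose and 2 fell in the knockout (1.43). Nek2, a centrosome kinase, rose by 2.43 ± 0.26 (SE, adjusted p = 1.06e-05) and 2.14 ± 0.27 (SE, adjusted p = 2.92e-05). Casc5, the kinetochore scaffold also called Knl1, rose by 1.95 and 2.54, and the checkpoint kinase Ttk by 2.11 and 2.11. A further list held G1 cyclins together with kinases and brakes of the cell cycle, not all of them particular to G1. Of its 20 genes tested 6 rose and 1 fell in the wild type and 7 rose and 1 fell in the knockout. Ccnd1, the cyclin D1 of G1 entry, rose by 1.68 and 1.52, the pocket protein Rbl1 by 1.76 and 1.93, and Wee1, the kinase that holds Cdk1 inactive, by 1.53 and 1.70. Rb1, the retinoblastoma brake, fell by 0.58 in the wild type and was at 0.11 ± 0.21 (SE, adjusted p = 0.686) in the knockout. The gene that fell in the knockout was Cdkn2b, an inhibitor of the cyclin D kinases, at -0.81 ± 0.26 (SE, adjusted p = 0.0208).

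Markers of the cell types a liver can hold moved with the diet. Hepatocyte markers, 12 of 12 in the tables, summed to 181000 to 222000 CPM in WT-CHOW and 105000 to 147000 in WT-MCD, and to 187000 to 248000 and 110000 to 136000 in the knockout. Of these 6 fell in wild-type and 5 in knockout livers. Bile duct markers (6 of 8, without Krt7 and Sox9) summed to 16.9 to 39 and 72.5 to 132 CPM in the wild type and to 17 to 33.7 and 75.9 to 119 in the knockout, with Epcam and Spp1 called higher. Macrophage markers (11 of 12, without Adgre1) summed to 515 to 712 and 587 to 1020 in the wild type and to 560 to 900 and 590 to 916 in the knockout. Of the 11 tested 4 rose and 2 fell in the wild type, and 4 rose and 3 fell in the knockout. Those that rose included Gpnmb, Trem2, Lyz2 and Csf1r, and those that fell included Clec4f and Marco. T and NK cell markers (9 of 10) summed to 13.8 to 19.2 and 25 to 40.1, then 10.0 to 23.7 and 22 to 37.8. Of these Cd4 rose, from a mean of 8.39 to 25 CPM in wild-type livers, where the mean sum went from 16.4 to 31.7 CPM. The wild-type rise of the sum was thus that of Cd4. Cd8a (-0.38 and -0.14), Lck (-0.29 and -0.21) and Nkg7 (-0.79 and -0.70) had log2 folds below 0 that were not called.

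Stellate cell and myofibroblast markers (10 of 10) summed to 291 to 505 and 466 to 1290 CPM in the wild type and to 235 to 370 and 449 to 678 in the knockout. Endothelial markers (6 of 8) gave 148 to 200 and 139 to 206, then 116 to 163 and 125 to 260. Among them Vwf (log2 folds 1.66 and 1.61) and Cdh5 (1.42 and 1.76) rose in both genotypes, Stab2 rose in the knockout (1.61), and Lyve1 fell in the wild type (-0.80). Red blood cell markers (7 of 10) summed to 1040 to 1550 and 85.2 to 234, then 495 to 4800 and 102 to 142, and all 5 tested fell in both genotypes. B and plasma cell markers (5 of 7) summed to at most 4.33 CPM in any library, and neutrophil markers (7 of 7) to at most 9.24, with Mpo at 0 throughout. The part of these cell types in the rise of the replication and mitosis members was not tested.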

How the data were processed

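Liver RNA of 16 libraries was sequenced from stranded mRNA libraries, per the labels. The authors deposited expected counts per gene made with RSEM, per the submitters' processing notes, which name RSEM 1.2.15, Bowtie2 2.1.0 and rn6; expected counts share reads among near copies, and 88.9% were whole (tolerance 1e-06). They also deposited a normalised signal, the TMM-scaled CPM, which equalled the rounded count multiplied by a single library constant (largest relative deviation 5.11e-15). The sources used here give neither annotation nor strand setting.

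Counts were rounded and fitted with edgeR 4.0.16 in R 4.3.3 (filterByExpr, TMM, 1 term per group, robust quasi-likelihood test, 12 residual degrees of freedom, common biological coefficient of variation 28%). Calls needed an adjusted p (Benjamini-Hochberg, 11162 genes) under 0.05. The SE is the log2 fold over the square root of its F. Log2 CPM have a prior count of 2. Alternatives were other scalings and filters, DESeq2 1.42.0, limma 3.58.1, a replicate block, the message-length covariate and left-out libraries, and scripts were tested on simulated data. No library repeats another: same-group pairs had chi-squares per gene between 15.3 and 384 (genes of 20 counts or more). Totals were 8745756 to 15762660 counts, and intervals beyond the fits are not given. Reads carry no molecular identifiers, so copies made in amplification cannot be told from separate molecules.

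Values in every library are given, per role, for at most 2 called members, those of smallest p (wild type first), and for members called in no diet comparison; Cks2, Mki67 and Uhrf1 were added after their values were seen. Of each further list up to 3 called genes per direction were named by the same order, and some named items are not reported here. The members and lists were chosen with earlier results of these data known. Promoters came from RefSeq's GRCr8 table and served for sequence alone, since the counts use rn6.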

Additional observations from a re-analysis of the deposited data

Results flagged for a closer look

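Of 208 groups of 4 libraries (52 members in 4 groups) 11 had a highest or lowest library whose gap to the next, over the group's range in CPM, passed Dixon's 95% critical value. Such a rule marks about 5% of groups by chance. In WT-CHOW 4 Pcna was at 24.2 CPM, above 12.1 to 13.9 in the other libraries of its group, and Stmn1 at 4.09 CPM, below 10.8 to 12.0. The library labelled KO-CHOW 4 had Cks2 at 14.7 CPM, above 7.61 to 8.32, and Tpx2 at 1.47 CPM, below 2.52 to 2.73. In the library labelled KO-MCD 1 Cdc20 was at 7.09 CPM, below 10.9 to 11.0, and Ect2 at 4.59 CPM, below 5.02 to 5.09. WT-CHOW 1 was high for Kif23 (1.02 CPM, others 0.372 to 0.476) and Racgap1 (1.21 CPM, others 0.578 to 0.666). KO-CHOW 1 was high for Kif20a (3.86 CPM, others 2.48 to 2.54). WT-MCD 2 was high for Ect2 (6.72 CPM, others 5.28 to 5.51) and Mki67 (48.8 CPM, others 27.2 to 30.6). No cause of these values was tested.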

How the results depend on the processing

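The counts of members called for the diet stayed within 1.5 times of 38 (wild type) and 42 (knockout) under other scaling, filters, tools and left-out libraries. The exception was the index of long minus short messages as a covariate, with 22 and 27 members and a replication mean minus mitosis mean of 0.18 and 0.14. Leaving out each library in turn gave 36 to 40 and 38 to 43 members for the diet and 0 to 0 in each genotype comparison and for the difference of the diet effects. The replication mean minus the mitosis mean then ran from -0.44 to -0.11 (diet, wild type), -0.50 to -0.16 (diet, knockout), 0.33 to 0.68 (knockout against wild type, chow), 0.36 to 0.51 (MCD) and -0.24 to 0.11 (difference). In the knockout the calls of Bub1, Cdt1, Cks2, Gins1, Hmgb2 and Rrm1, and in the wild type those of Melk and Ube2c, were lost without at least 1 library (highest adjusted p = 0.173, Cks2 without KO-CHOW 4). Without the 3 libraries that stood apart 4 members were called on chow, as given above, and 516 genes in all against 1, with 20 against 0 for the difference of the diet effects; without WT-CHOW 4 alone 17 genes, with DESeq2 23. Library totals alone put the median gene at 0.528 and 0.765 between diets, raised the share of higher calls among all genes from 53.3% to 90.4% and from 54.2% to 94.1%, and turned Cks2 in the knockout to 0.03 (adjusted p = 0.932). Libraries of equal replicate number had correlations of -0.38 to 0.51 (7 of 24 over 0.1), the highest for WT-CHOW 4 with KO-CHOW 4. Whether libraries numbered 4 share a feature was not tested. A replicate block gave 38 (diet, wild type), 42 (diet, knockout) and otherwise 0 members. With libraries numbered 1 to 3 only, 12 replication and 26 mitosis members rose in the wild type (19% of all genes). In the knockout 11 and 28 rose (18.6%). The mitosis medians for knockout against wild type were then -0.62 on chow and -0.41 on MCD. In the promoters the CHR shares fell to 48.3% (mitosis) and 7.14% (replication) in 150 bases, and E2F words with a further T in front to 3.45% (mitosis). Depth limits members with few reads on chow, among them Uhrf1, with 1 count in each KO-CHOW library, and Melk, with 0 to 2. Nuf2 had 3, 1, 6 and 0 counts and Spc25 1, 7, 4 and 1 in KO-CHOW 1 to 4. Ndc80 had 5, 7, 1 and 0 counts in WT-CHOW 1 to 4.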
